A study of Mus musculus with 10 samples.

Results

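The proteasome subunits and muscle ubiquitin ligases described here were 37 genes, taken by symbol from the deposited count table of 38355 genes. They comprised 14 subunits of the 20S core particle (7 alpha and 7 beta), 17 subunits of the 19S regulatory particle (6 ATPases and 11 non-ATPases) and 6 ubiquitin ligases known from muscle. Each symbol matched 1 row, and all 37 passed the filter on low counts that left 12629 genes for testing. RNA was sequenced from cardiomyocytes of 5 adult FVB/N mice that carried the Epac1-PLN transgene and of 5 adult wildtype FVB/N mice, all untreated. Epac1-PLN is a genetically encoded FRET biosensor whose name combines the cAMP-binding protein Epac1 with phospholamban, and the series' title calls its expression cardiac specific. The sources used here do not name the promoter that drives it or the number of transgenic lines. The cells came from hearts taken apart by Langendorff perfusion, in which enzyme solution is pumped back through the coronary arteries. Each genotype held 3 females and 2 males (Epac1-PLN replicates 1 and 5 and wildtype replicates 1 and 2 were the males). The study compared gene expression in heart muscle cells of the 2 genotypes.

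The proteasome is the main protease of the cytosol and nucleus. Ubiquitin is activated by E1 enzymes, passed to E2 enzymes and attached to a protein by an E3 ligase, after which the 19S particle binds the ubiquitin chain, unfolds the protein with its ring of ATPases and feeds it into the 20S core, where it is cut. In striated muscle the ligases atrogin-1 (Fbxo32) and MuRF1 (Trim63) direct contractile and regulatory proteins into this route, and both are known for their induction by FoxO transcription factors during muscle wasting in mice.

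Library totals ranged from 10632224 to 15959196 counts in Epac1-PLN and from 13266303 to 20983754 counts in wildtype. Rapgef3, which encodes Epac1, was at 1241 to 1741 CPM (read counts scaled to a common library size with TMM factors) in the Epac1-PLN libraries. In the wildtype libraries Rapgef3 was at 10.4 to 16.0 CPM, so each library matched its genotype label. The sex labels were not checked against the counts. Summed CPM of the 12 cardiomyocyte markers ranged from 120500 to 139200 in Epac1-PLN and from 120000 to 143300 in wildtype. Among markers of other cells, the 10 endothelial genes summed to 649 to 1337 CPM against 725.5 to 1213 CPM, the 10 fibroblast genes to 574 to 838 CPM against 557 to 894 CPM, and the 9 smooth muscle and pericyte genes to 1288 to 1523 CPM against 1157 to 1571 CPM. The 12 macrophage and leukocyte genes summed to 42.8 to 87.5 CPM in Epac1-PLN and 34.7 to 69.3 CPM in wildtype, the 9 lymphocyte genes to 0.193 to 1.33 CPM and 0.453 to 0.928 CPM, and the 5 erythroid genes, of which Hba-a2 was at 0 in all libraries, to 6.25 to 44.1 CPM and 5.40 to 44.7 CPM. No marker gene passed the genotype test with edgeR, DESeq2 or limma-voom, and at an unadjusted p under 0.05 stood the cardiomyocyte marker Myl3 and the fibroblast marker Dpt, both lower in Epac1-PLN. Epac1-PLN replicate 4 stood apart from the other libraries. Its median Spearman correlation with them was the lowest (0.983, against 0.986 to 0.991 elsewhere), and its endothelial and macrophage sums were the highest (1337 and 87.5 CPM).

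Messenger RNA of the proteasome and of the muscle ligases showed no change that passed the test between Epac1-PLN and wildtype cardiomyocytes. With edgeR's quasi-likelihood test, 0 of the 37 members had an adjusted p under 0.05, against 0.641% of all genes tested (81 of 12629; 0.443% higher and 0.198% lower in Epac1-PLN). DESeq2 and limma-voom also called 0 members. At an unadjusted p under 0.05 stood 4 members, where 12.2% of all genes tested did. All 4 were lower in Epac1-PLN (0 were higher), where 5.4% of all genes tested were lower and 6.77% higher at that level. They were the ligase gene Trim55 and the core subunit genes Psma1, Psma2 and Psmb1. The smallest adjusted p was 0.327, for Trim55. The differences were small, with log2 fold changes (Epac1-PLN over wildtype) between -0.20 for Psma5 and 0.060 for Stub1. The 95% intervals of the 31 subunits all lay between -0.40 and 0.20, and those of the 6 ligases between -0.59 and 0.27.

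**Figure D1:**
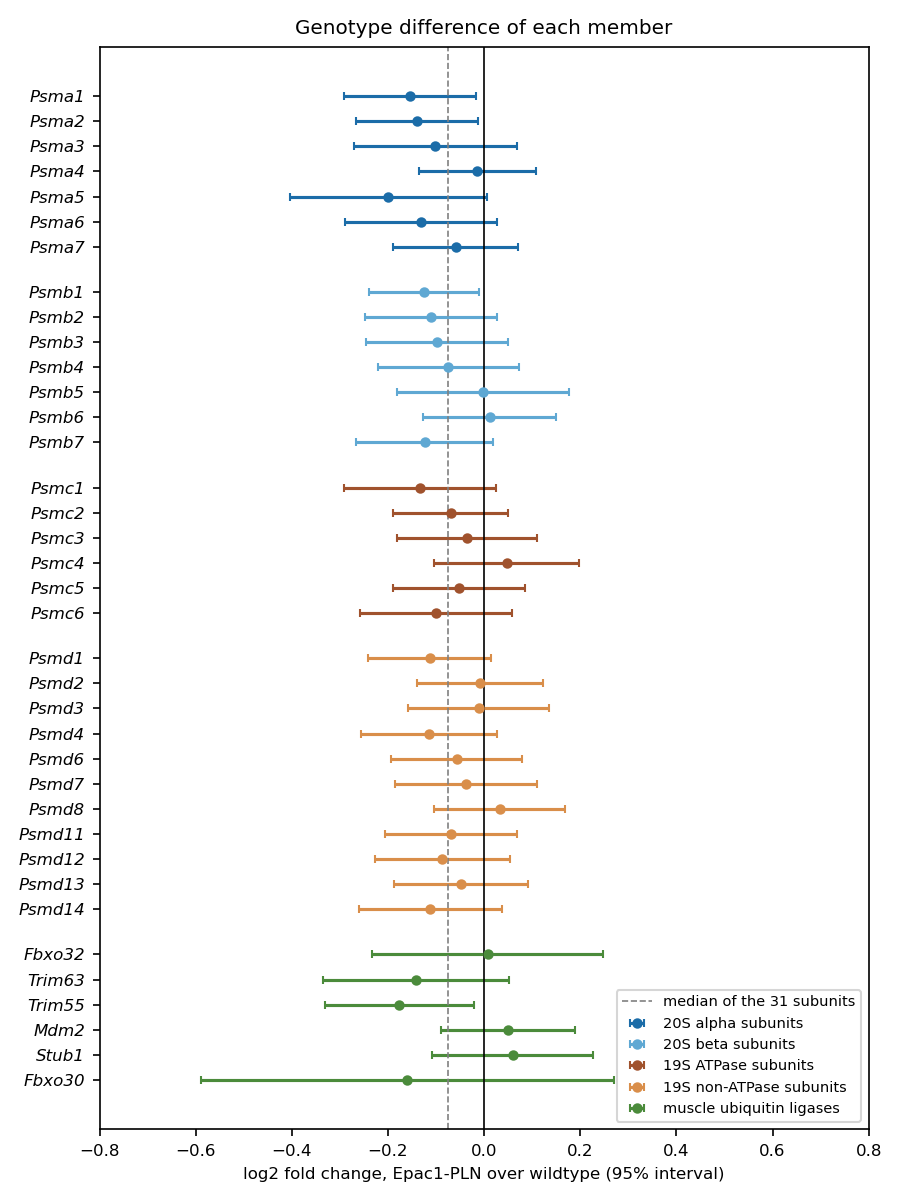
Log2 fold change of each of the 37 genes, Epac1-PLN over wildtype, with its 95% interval from edgeR's quasi-likelihood fit (n = 5 libraries per genotype), coloured by class; the dashed line is the subunit median of -0.074. Most points lie left of 0, and the intervals of Psma1, Psma2, Psmb1 and Trim55 alone do not reach it.

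The subunits lay to 1 side. Of the 31 subunits, 28 had a log2 fold change below 0, where 49% of all genes tested did, and their median was -0.074, where that of all genes tested was 0.0039. The exceptions were Psmb6, Psmc4 and Psmd8. By class, the fold change was below 0 in 7 of 7 alpha subunits (median -0.13), 6 of 7 beta subunits (median -0.099), 5 of 6 ATPases (median -0.061), 10 of 11 non-ATPase subunits (median -0.057) and 3 of 6 ligases (median -0.067). These counts describe lists chosen with earlier results of the same libraries known and carry no test. The subunits share libraries and scaling and so are not independent of each other. With upper-quartile scaling Psmb6 also lay below 0, so that 29 subunits did, and with each of the other scalings the count was 28.

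The size of this shift depended on single libraries. Relative to each gene's mean over the 10 libraries, the 31 subunits averaged -0.021, -0.033, -0.0048, -0.12 and -0.0044 on the log2 scale in Epac1-PLN replicates 1 to 5, against 0.078, 0.073, 0.00041, -0.035 and 0.069 in wildtype replicates 1 to 5. The 2 groups overlapped through wildtype replicate 4, which lay below 4 of the 5 Epac1-PLN libraries. With each library left out in turn, the subunit median ran from -0.10 (without Epac1-PLN replicate 3) to -0.053 (without wildtype replicate 5). Without wildtype replicate 5, 24 of 31 subunits lay below 0. Epac1-PLN replicate 4 had the lowest level of all 10 libraries for 19 of the 31 subunits. Without it the subunit median was -0.055, 27 of 31 subunits lay below 0, and 1 member (Psmb1) had an unadjusted p under 0.05. The class medians were then -0.091 for the alpha subunits, -0.081 for the beta subunits, -0.052 for the ATPases, -0.021 for the non-ATPase subunits and -0.033 for the ligases. Of the 31 subunits, 19 kept their log2 fold change within 1.5 times, 9 had one over 1.5 times smaller and 3 changed sign (Psmb6, Psmd2 and Psmd7, at -0.013, 0.027 and 0.0086). The 9 were Psma4 (-0.0045), Psma6 (-0.069), Psmc3 (-0.0070), Psmc4 (0.024), Psmd6 (-0.012), Psmd8 (0.0091), Psmd11 (-0.043), Psmd12 (-0.037) and Psmd13 (-0.021). Among the ligases, Fbxo32 was then at -0.0089 and Fbxo30 at -0.056. Of the cardiomyocyte markers, 6 of 12 had a log2 fold change above 0 (median 0.011). Markers of 2 other cell types lay mostly above 0, with 9 of 10 endothelial markers (median 0.14) and 10 of 11 tested macrophage and leukocyte markers (median 0.23). Those of 3 others lay more often below 0. They were 6 of 10 fibroblast markers (median -0.049), 5 of 8 tested smooth muscle and pericyte markers (median -0.051) and 4 of 4 tested erythroid markers (median -0.37). The part of these cells in the subunit values was not tested. In bulk RNA, fewer cells of a type and less RNA per cell cannot be told apart.

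**Figure D2:**
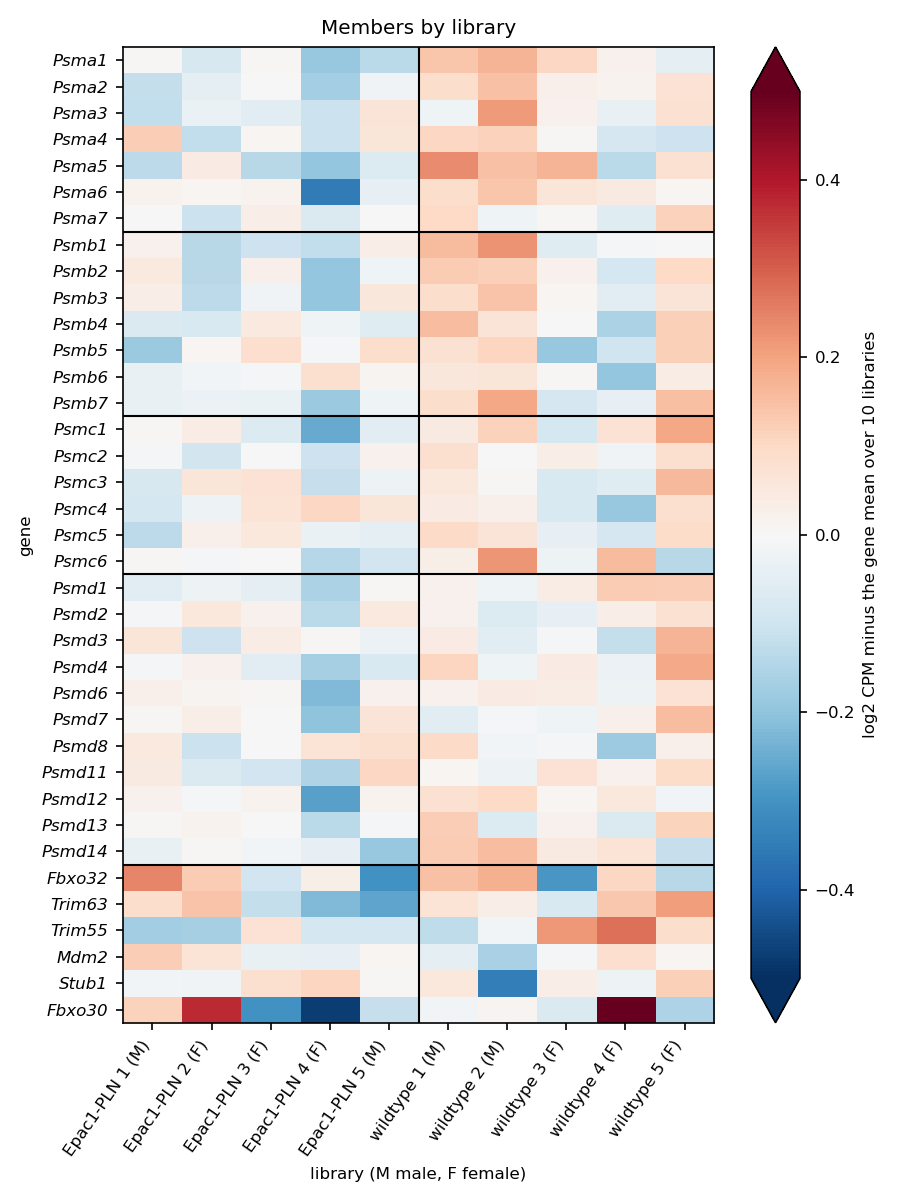
Log2 CPM of each of the 37 genes minus its mean over the 10 libraries (colour scale, log2 units), with Epac1-PLN libraries left of the vertical line and wildtype libraries right of it; M is male, F is female, and rows are grouped by class. The column of Epac1-PLN replicate 4 is blue for most subunits, and wildtype replicates 1, 2 and 5 are mostly red.

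Spread between mice of 1 genotype was measured for the same genes. The SD of log2 CPM within a genotype had a median over the 31 subunits of 0.077 in Epac1-PLN and 0.094 in wildtype, where the 6784 tested genes within the members' range of mean level (13.8 to 324 CPM) had medians of 0.13 and 0.14. The ligases had medians of 0.14 in Epac1-PLN and 0.17 in wildtype, and the SD of Fbxo30 was the largest of the 37 members, at 0.33 in Epac1-PLN and 0.32 in wildtype.

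Levels per kilobase of transcript differed widely among subunits that enter the particle in equal copy number. Psmb7, the trypsin-like site of the core, was the most abundant at 181 ± 8.44 in Epac1-PLN and 198 ± 16.3 in wildtype (CPM per kilobase, mean ± SD, n = 5 each). The next subunit, Psmb6, was at 176 ± 5.56 in Epac1-PLN and 175 ± 12.4 in wildtype, and in wildtype the means of Psmb7 and Psmb6 differed by less than 2 SD of either. Psma7, Psmc3, Psma6 and Psma1 followed, with wildtype means between 144 and 167 CPM per kilobase. The lowest were the alpha subunits Psma5, at 10.4 ± 0.651 in Epac1-PLN and 11.9 ± 1.13 in wildtype, and Psma3, at 7.17 ± 0.373 in Epac1-PLN and 7.70 ± 0.554 in wildtype. Among the ligases Trim63 stood highest, at 163 ± 20.7 in Epac1-PLN and 180.3 ± 13.4 in wildtype, and Fbxo30 lowest, at 9.01 ± 2.13 in Epac1-PLN and 10.1 ± 2.49 in wildtype. These values use the longest principal transcript of GENCODE M21 as the length, and the transcripts made in these cells were not measured. The part of reads shared with pseudogenes in these levels was not tested.

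The alpha subunits form the outer rings of the core and its gate. Psma1 and Psma2 had the smallest p of the class. Psma1 (ENSMUSG00000030751, chr7:114264606-114276118) was at 164, 154, 164, 143 and 149 CPM in Epac1-PLN replicates 1 to 5, against 179, 184, 175, 165 and 158 CPM in wildtype replicates 1 to 5. Its highest value was in wildtype replicate 2 and its lowest in Epac1-PLN replicate 4, and the groups overlapped only through wildtype replicate 5. The log2 fold change was -0.15 ± 0.063 (adjusted p = 0.336) with edgeR's quasi-likelihood test, and the unadjusted p was 0.0302. Psma2 (ENSMUSG00000015671, chr13:14613242-14625671) was at 91.8, 96.5, 99.5, 88.7 and 98.5 CPM in Epac1-PLN replicates 1 to 5, against 106, 110.4, 101, 101 and 105 CPM in wildtype replicates 1 to 5. It was the 1 member whose groups did not overlap, with every Epac1-PLN library below every wildtype library, where 2.75% of all genes tested had groups that did not overlap and 1.24% had Epac1-PLN lower in this way. Its log2 fold change was -0.14 ± 0.058 (adjusted p = 0.348), and it stayed below 0 at -0.12 without Epac1-PLN replicate 4. Psma5 (ENSMUSG00000068749, chr3:108256926-108279974) had the largest difference of any subunit and the fewest reads, 135 to 340 per library. It was at 12.5, 14.1, 12.5, 12.0 and 13.1 CPM in Epac1-PLN replicates 1 to 5, against 16.2, 15.2, 15.4, 12.5 and 14.4 CPM in wildtype replicates 1 to 5. Wildtype replicate 4 lay as low as the Epac1-PLN libraries, and the log2 fold change of -0.20 ± 0.095 (adjusted p = 0.423) did not pass the test. Exons of Psma5 overlap those of 1700010K24Rik on the other strand. The remaining alpha subunits, Psma3, Psma4, Psma6 and Psma7, had log2 fold changes from -0.13 (Psma6) to -0.014 (Psma4).

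The proximal promoters of Psma1 and Psma2 are shown because these genes had the smallest p of the subunits. They are the 200 bases before the start site, from RefSeq on GRCm38.p6, the assembly that mm10 denotes. Capitals mark the letters CCAAT, the core of the box bound by NF-Y, or their complement where the box lies on the other strand.
Psma1, chr7:114276117-114276316, minus strand: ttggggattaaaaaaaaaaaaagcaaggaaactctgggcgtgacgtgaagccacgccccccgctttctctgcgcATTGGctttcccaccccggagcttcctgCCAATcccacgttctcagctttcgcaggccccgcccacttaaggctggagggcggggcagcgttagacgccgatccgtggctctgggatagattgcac
Psma2, chr13:14613042-14613241, plus strand: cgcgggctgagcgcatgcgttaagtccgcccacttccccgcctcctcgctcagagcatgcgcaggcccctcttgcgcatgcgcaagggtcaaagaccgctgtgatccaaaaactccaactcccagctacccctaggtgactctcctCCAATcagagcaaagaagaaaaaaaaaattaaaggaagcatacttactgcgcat
RefSeq windows from 250 bases before to 50 bases after the start site were at hand for 29 of the 37 members (31 windows). CCAAT on either strand occurred in 5 of 8 windows of alpha subunits, in 10 of 27 windows of all subunits (37%) and in 37.4% of 32851 windows of all genes. A match describes letters and is no evidence of binding.

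The beta subunits carry the cutting sites. Psmb5, Psmb6 and Psmb7 are the chymotrypsin-like, caspase-like and trypsin-like sites, and Psmb5 and Psmb6 had the log2 fold changes nearest 0 of the class. Psmb5 (ENSMUSG00000022193, chr14:54614120-54617995) was at 30.3, 34.7, 36.5, 34.3 and 36.6 CPM in Epac1-PLN replicates 1 to 5, against 36.4, 37.1, 30.3, 32.2 and 37.4 CPM in wildtype replicates 1 to 5. High and low libraries occurred in both groups, with the lowest 2 values in wildtype replicate 3 and Epac1-PLN replicate 1, and the log2 fold change was -0.0027 ± 0.083 (adjusted p = 0.996). Psmb6 (ENSMUSG00000018286, chr11:70525367-70527858) was at 136, 138, 139, 148 and 141 CPM in Epac1-PLN replicates 1 to 5, against 145, 146, 140.1, 122 and 143 CPM in wildtype replicates 1 to 5. Here Epac1-PLN replicate 4 was the highest library and wildtype replicate 4 the lowest, and the log2 fold change was 0.012 ± 0.064 (adjusted p = 0.972). Psmb7 (ENSMUSG00000026750, chr2:38588036-38644087) was at 213, 214, 214, 193 and 216 CPM in Epac1-PLN replicates 1 to 5, against 232, 251, 207, 213 and 243 CPM in wildtype replicates 1 to 5. Wildtype replicates 1, 2 and 5 exceeded every Epac1-PLN library while wildtype replicates 3 and 4 did not, and the log2 fold change was -0.12 ± 0.066 (adjusted p = 0.488). Pseudogenes of these subunits (Psmb5-ps, Psmb6-ps and Psmb7-ps2) have rows of their own in the count table, so that reads of near-identical sequence may have been split or left out. Pseudogenes of members under other kinds of name were not looked for. The exons of Psmb7 also overlap those of Nek6 on the other strand.

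Among the noncatalytic beta subunits, Psmb1 (ENSMUSG00000014769, chr17:15475721-15498276) was at 151, 135, 139, 137 and 153 CPM in Epac1-PLN replicates 1 to 5, against 166, 174, 143, 148 and 149 CPM in wildtype replicates 1 to 5. The 2 highest values were those of wildtype replicates 1 and 2, both male, and the other wildtype libraries lay within the Epac1-PLN range. Its log2 fold change was -0.12 ± 0.053 (adjusted p = 0.359) with an unadjusted p of 0.0354, and was -0.13 without Epac1-PLN replicate 4. Psmb2 (ENSMUSG00000028837, chr4:126677630-126709714) was at 103, 90.4, 101, 87.0 and 97.9 CPM in Epac1-PLN replicates 1 to 5, against 108, 108, 101, 93.7 and 107 CPM in wildtype replicates 1 to 5. Its groups overlapped, and the log2 fold change was -0.11 ± 0.064 (adjusted p = 0.528). Psmb3 and Psmb4 had log2 fold changes of -0.099 and -0.074.

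The promoters of Psmb5 and Psmb6 are shown because NFE2L1 and NFE2L2 (NRF1 and NRF2), the transcription factors known to raise proteasome genes in mammalian cells, bind the antioxidant response element, whose core letters TGACNNNGC both hold (capitals; 200 bases before the start site, RefSeq, GRCm38.p6).
Psmb5, chr14:54617996-54618195, minus strand: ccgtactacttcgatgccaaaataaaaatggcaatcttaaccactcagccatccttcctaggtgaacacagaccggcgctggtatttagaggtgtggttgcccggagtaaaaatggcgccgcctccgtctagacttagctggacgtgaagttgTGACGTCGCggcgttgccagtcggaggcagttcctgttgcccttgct
Psmb6, chr11:70525157-70525356, plus strand: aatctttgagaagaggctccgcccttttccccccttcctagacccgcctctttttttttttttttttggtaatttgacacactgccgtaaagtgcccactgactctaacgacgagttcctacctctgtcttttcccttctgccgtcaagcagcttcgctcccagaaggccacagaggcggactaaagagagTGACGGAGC
On either strand, TGACNNNGC occurred in 4 of 27 subunit windows (Psmb5, Psmb6, Psmc6 and Psmd12; 14.8%) and in 12.4% of windows of all genes. The log2 fold changes of these 4 genes were -0.0027 (Psmb5), 0.012 (Psmb6), -0.10 (Psmc6) and -0.087 (Psmd12).

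The 6 ATPases (Psmc1 to Psmc6) form the ring that unfolds substrates. None had an unadjusted p under 0.05. Psmc1 (ENSMUSG00000021178, chr12:100110186-100123364) was at 133, 136, 127, 112 and 128 CPM in Epac1-PLN replicates 1 to 5, against 137, 144, 125, 139.8 and 152 CPM in wildtype replicates 1 to 5. Epac1-PLN replicate 4 was the lowest library and wildtype replicate 5 the highest, with wildtype replicate 3 inside the Epac1-PLN range, and the log2 fold change was -0.13 ± 0.073 (adjusted p = 0.503). Psmc6 (ENSMUSG00000021832, chr14:45329824-45349071) was at 154, 153, 153, 139 and 144 CPM in Epac1-PLN replicates 1 to 5, against 156, 179, 151, 171 and 139.5 CPM in wildtype replicates 1 to 5. Wildtype replicates 2 and 4 were high and wildtype replicate 5 was nearly as low as Epac1-PLN replicate 4, and the log2 fold change was -0.10 ± 0.073 (adjusted p = 0.652). Psmc2 (ENSMUSG00000028932, chr5:21785283-21803787) was at 138, 130.5, 139, 129 and 141 CPM in Epac1-PLN replicates 1 to 5, against 147, 139, 142, 137 and 147 CPM in wildtype replicates 1 to 5. Its values spanned a narrow range with overlap between the groups, and the log2 fold change was -0.070 ± 0.056 (adjusted p = 0.689). Psmc3 and Psmc5 were at -0.035 and -0.052, and Psmc4, above 0, at 0.047. Psmc3 exons overlap those of Slc39a13 on the other strand.

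The promoter of Psmc1 is shown for the ETS core CCGGAAG, the letters bound by ETS factors such as GABPA, since its counts in 19S and 20S windows lay far apart (200 bases before the start site, RefSeq, GRCm38.p6; capitals mark the core, here on the other strand).
Psmc1, chr12:100110002-100110201, plus strand: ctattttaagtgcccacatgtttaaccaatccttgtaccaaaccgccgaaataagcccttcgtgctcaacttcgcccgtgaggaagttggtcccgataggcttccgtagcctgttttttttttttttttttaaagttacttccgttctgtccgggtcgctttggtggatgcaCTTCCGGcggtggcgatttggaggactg
The ETS core on either strand occurred in 10 of 15 windows of 19S genes (66.7%), in 1 of 12 windows of 20S genes (8.33%) and in 8.86% of windows of all genes. The 19S genes with it were Psmc1, Psmc2, Psmc6, Psmd2, Psmd4, Psmd6, Psmd11, Psmd12 and Psmd13, Psmc2 with it in both of its windows, and the 20S gene was Psma6. Counted from the start site, the first base of the match was at -28 in Psmc1, -26 in Psmd2, -17 in Psmd12 and -11 in Psmd11, and at -125 in Psmd4. Within the members' windows no match of 1 of the motifs searched overlapped a match of another.

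The non-ATPase subunits make up the base, the ubiquitin receptors and the lid of the 19S particle, and again none had an unadjusted p under 0.05. Psmd1 (ENSMUSG00000026229, chr1:86064387-86139151), the large scaffold of the base, was at 161, 165, 162, 151 and 169 CPM in Epac1-PLN replicates 1 to 5, against 170.4, 165, 172, 184 and 183 CPM in wildtype replicates 1 to 5. Epac1-PLN replicate 4 was lowest and wildtype replicates 4 and 5 highest, with wildtype replicate 2 inside the Epac1-PLN range, and the log2 fold change was -0.11 ± 0.059 (adjusted p = 0.48). Its exons overlap those of Htr2b on the other strand. Psmd4 (ENSMUSG00000005625, chr3:95032694-95042614), a receptor for ubiquitin chains, was at 112, 114, 108, 99.8 and 106 CPM in Epac1-PLN replicates 1 to 5, against 121, 110.4, 115, 109.6 and 128 CPM in wildtype replicates 1 to 5. Wildtype replicate 5 was high and wildtype replicates 2 and 4 lay inside the Epac1-PLN range, and the log2 fold change was -0.12 ± 0.065 (adjusted p = 0.519). Psmd14 (ENSMUSG00000026914, chr2:61711694-61800376), the deubiquitinase of the lid, was at 58.2, 60.0, 59.2, 58.0 and 52.4 CPM in Epac1-PLN replicates 1 to 5, against 65.2, 66.5, 61.7, 62.6 and 55.1 CPM in wildtype replicates 1 to 5. The lowest library of each group was replicate 5, and the log2 fold change was -0.11 ± 0.069 (adjusted p = 0.57). The other 8 (Psmd2, Psmd3, Psmd6, Psmd7, Psmd8, Psmd11, Psmd12 and Psmd13) had log2 fold changes from -0.087 (Psmd12) to 0.032 (Psmd8).

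Of the muscle ligases, the F-box gene Fbxo32 and the muscle RING-finger genes Trim63 and Trim55 gave no call. Fbxo32 (ENSMUSG00000022358, chr15:58175879-58214892), which encodes atrogin-1, the substrate-binding part of an SCF ligase, was at 275, 254, 217, 237 and 188 CPM in Epac1-PLN replicates 1 to 5, against 257, 262, 189.6, 249 and 211 CPM in wildtype replicates 1 to 5. The groups spanned like ranges, with Epac1-PLN replicate 5 and wildtype replicate 3 the lowest, and the log2 fold change was 0.0073 ± 0.11 (adjusted p = 0.991). With an SE of 0.11 the 95% interval of this difference ran from -0.23 to 0.25. Trim63 (ENSMUSG00000028834, chr4:134315120-134329629), which encodes MuRF1, a ligase of the sarcomere, was at 343, 356, 297, 277 and 269 CPM in Epac1-PLN replicates 1 to 5, against 338, 329.9, 306, 354 and 373 CPM in wildtype replicates 1 to 5. Epac1-PLN replicates 3, 4 and 5 lay below every wildtype library while replicates 1 and 2 lay among them, and the log2 fold change was -0.14 ± 0.090 (adjusted p = 0.582). Trim55 (ENSMUSG00000060913, chr3:19644460-19691599), which encodes the related MuRF2, was at 89.8, 90.3, 107, 95.4 and 95.3 CPM in Epac1-PLN replicates 1 to 5, against 92.7, 100.3, 118, 123 and 108 CPM in wildtype replicates 1 to 5. Its 3 highest values were the 3 wildtype females, and the wildtype males (replicates 1 and 2) lay within the Epac1-PLN range. The log2 fold change of -0.18 ± 0.071 (adjusted p = 0.327), with an unadjusted p of 0.0283, was the nearest of all 37 members to the threshold. Without Epac1-PLN replicate 4 it was -0.16.

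**Figure D3:**
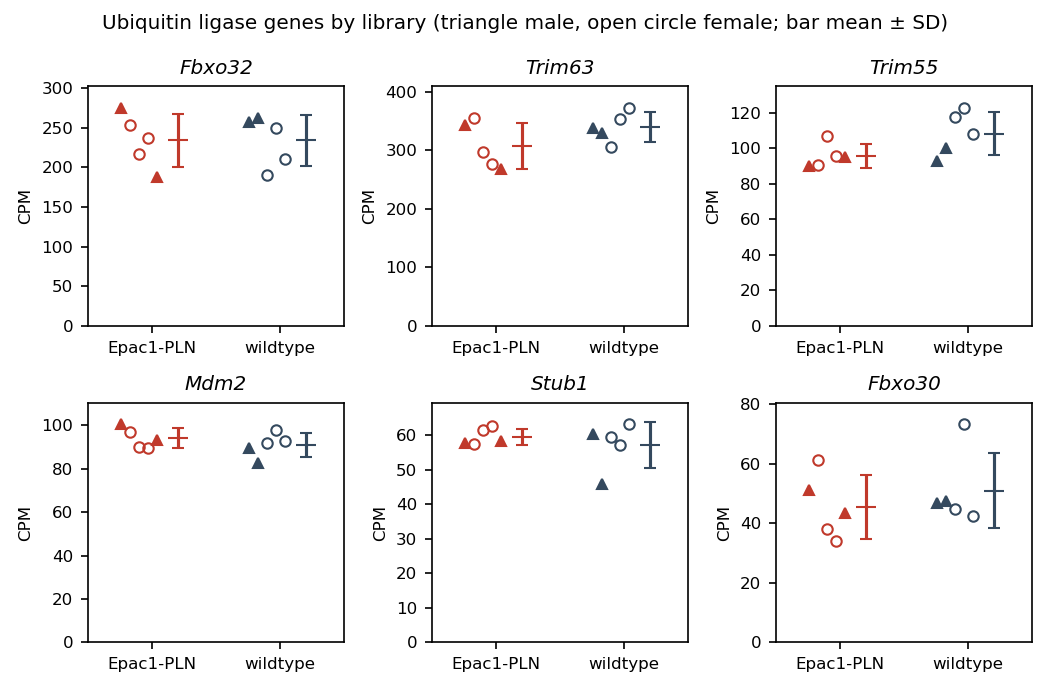
CPM of the 6 ubiquitin ligase genes in each library (triangles male, open circles female; points run from replicate 1 to 5), with the mean and SD of each genotype beside the points. The groups overlap in all 6 panels; Trim55 averages 95.5 ± 6.75 CPM in Epac1-PLN and 108 ± 12.3 CPM in wildtype.

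The other 3 ligases are not specific to muscle. Mdm2 (ENSMUSG00000020184, chr10:117688888-117710758), the ligase of p53 and itself a p53 target, was at 100.4, 96.7, 90.1, 89.6 and 93.0 CPM in Epac1-PLN replicates 1 to 5, against 89.3, 82.5, 92.0, 97.9 and 92.8 CPM in wildtype replicates 1 to 5. The log2 fold change was 0.049 ± 0.064 (adjusted p = 0.839), with overlap of the groups. Stub1 (ENSMUSG00000039615, chr17:25830636-25833361), which encodes CHIP, the ligase that works with HSP70 and HSP90 chaperones, was at 57.6, 57.3, 61.4, 62.6 and 58.4 CPM in Epac1-PLN replicates 1 to 5, against 60.2, 45.8, 59.4, 57.0 and 63.1 CPM in wildtype replicates 1 to 5. One wildtype library, replicate 2, was low, and the log2 fold change was 0.060 ± 0.078 (adjusted p = 0.836). Exons of Stub1 overlap those of Jmjd8 on the other strand. Fbxo30 (ENSMUSG00000047648, chr10:11281330-11298052), which encodes the F-box protein MUSA1 known from denervated mouse muscle, was at 51.1, 61.1, 38.2, 33.9 and 43.5 CPM in Epac1-PLN replicates 1 to 5, against 46.7, 47.6, 44.8, 73.2 and 42.3 CPM in wildtype replicates 1 to 5. It was the most variable member, with wildtype replicate 4 far above the other wildtype libraries, and the log2 fold change of -0.16 ± 0.19 (adjusted p = 0.82) was 0.017 without that library. Neither Mdm2 nor Stub1 nor Fbxo30 passed the test.

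The promoter of Trim63 is shown because it holds the FoxO core TGTTTAC (capitals), its first base at position -194 from the start site (RefSeq, GRCm38.p6).
Trim63, chr4:134314920-134315119, plus strand: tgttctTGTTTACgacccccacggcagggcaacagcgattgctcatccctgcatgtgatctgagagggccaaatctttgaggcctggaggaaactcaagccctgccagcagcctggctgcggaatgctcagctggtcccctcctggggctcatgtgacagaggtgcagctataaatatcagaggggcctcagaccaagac
On either strand the FoxO core occurred in the windows of Trim63 and Mdm2, 2 of 4 ligase windows, in 0 of 27 subunit windows and in 3.65% of windows of all genes. Fbxo32 and Trim55 had no window in the RefSeq table.

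The inducible catalytic subunits Psmb8, Psmb9 and Psmb10 replace Psmb5, Psmb6 and Psmb7 in the immunoproteasome, the form known from immune cells and from interferon treatment. Psmb8 was at 5.56, 2.89, 3.85, 6.94 and 12.6 CPM in Epac1-PLN replicates 1 to 5, against 6.95, 8.53, 3.49, 4.40 and 5.70 CPM in wildtype replicates 1 to 5. Epac1-PLN replicate 5 was the highest and Epac1-PLN replicate 2 the lowest of all libraries, so the wildtype values lay inside the Epac1-PLN range. Psmb9 averaged 5.49 ± 2.66 CPM in Epac1-PLN and 5.12 ± 1.43 CPM in wildtype and Psmb10 60.7 ± 8.01 CPM in Epac1-PLN and 64.1 ± 7.60 CPM in wildtype (SD, n = 5 each). None of the 3 passed the genotype test with edgeR (adjusted p = 0.926, 0.919 and 0.799), and the log2 fold changes of Psmb8 and Psmb9, 0.12 each, were -0.067 and -0.14 without Epac1-PLN replicate 4. Psmb11 and Psma8, the thymus and testis subunits, were too low to be tested. The ratio of Psmb8 to Psmb5 counts was 0.183 ± 0.103 in Epac1-PLN and 0.165 ± 0.0455 in wildtype (SD, n = 5 each), with an exact 2-sided permutation p of 0.984. The ratio of Psmb9 to Psmb6 was 0.0389 ± 0.0182 in Epac1-PLN and 0.0365 ± 0.00875 in wildtype (exact permutation p = 0.992), and that of Psmb10 to Psmb7 was 0.290 ± 0.0407 in Epac1-PLN and 0.280 ± 0.0245 in wildtype (exact permutation p = 0.698). All 3 had an adjusted p of 0.992, where the 252 regroupings allow 0.00794 at the least. The ratio of Psmb8 to Psmb5 was 0.0832 to 0.202 in the 6 females (median 0.126) and 0.184 to 0.343 in the 4 males, that of Psmb9 to Psmb6 0.0209 to 0.0497 in females (median 0.0292) and 0.0334 to 0.0649 in males, and that of Psmb10 to Psmb7 0.232 to 0.322 in females (median 0.272) and 0.280 to 0.335 in males. In the sex test across all genes the 3 inducible subunits had log2 fold changes (female over male) of -0.89 ± 0.27, -0.64 ± 0.25 and -0.21 ± 0.089 for Psmb8, Psmb9 and Psmb10, each with an unadjusted p under 0.05, and none passed (adjusted p = 0.289, 0.408 and 0.440 with edgeR). Macrophage and leukocyte marker sums were 34.7 to 87.5 CPM in females and 57.4 to 79.0 CPM in males. The part of such cells in the values of these 3 genes was not tested.

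**Figure D4:**
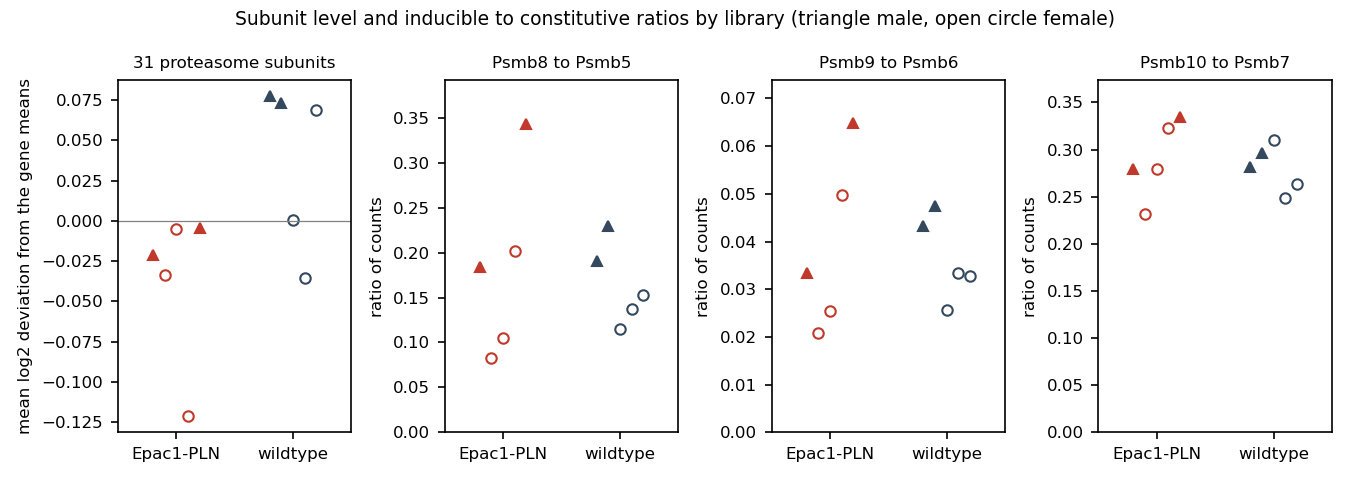
Left, mean log2 deviation of the 31 subunits from their means over the 10 libraries; other panels, ratio of inducible to constitutive catalytic subunit counts in each library (red Epac1-PLN, dark blue wildtype; triangles male, open circles female; points run from replicate 1 to 5). Epac1-PLN replicate 4 is the lowest point on the left at -0.12, and the genotypes overlap in every panel.

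Females and males were compared in the same fit. With edgeR's quasi-likelihood test 0 of 37 members passed (female minus male; 0.34% of all genes tested did), and limma-voom called 0. DESeq2 called 1, Psmb1 (adjusted p = 0.0306), where it called 158 of all 12628 genes tested. At an unadjusted p under 0.05 stood 3 members, 2 of them lower in females, where 10.4% of all genes tested did and 4.34% were lower in females. All 14 core subunits had a log2 fold change below 0 (lower in females), as did 27 of the 31 subunits and 48% of all genes tested, with a subunit median of -0.042. The subunits share libraries and scaling, so these counts carry no test. The mean subunit deviation was 0.078 and 0.073 in the wildtype males and -0.021 and -0.0044 in the Epac1-PLN males, against -0.12 to 0.069 in females. With each library left out in turn, 22 (without wildtype replicate 1) to 29 of the 31 subunits lay below 0. Markers of other cells had the same sign, with 10 of 10 endothelial markers (median -0.23), 9 of 11 macrophage and leukocyte markers (median -0.25), 7 of 10 fibroblast markers (median -0.090) and 4 of 4 tested erythroid markers (median -0.67) below 0, and the fibroblast marker Dcn passed the sex test (log2 fold change -0.67, adjusted p = 0.00967 with edgeR). Of the 12 cardiomyocyte markers 6 lay below 0 (median -0.0039). The part of these cells in the sex differences of the subunits was not tested. Psmb1 had 135 to 149 CPM in the 6 females, with a median of 141, against 151 and 153 CPM in the Epac1-PLN males and 166 and 174 CPM in the wildtype males. No female library reached a male one, and the log2 fold change was -0.18 ± 0.054 (adjusted p = 0.258 with edgeR). Psma4, an alpha subunit, had 82.1 to 90.1 CPM in females, with a median of 83.8, against 97.4 and 93.4 CPM in the Epac1-PLN males and 96.1 and 96.9 CPM in the wildtype males. These groups did not overlap either, and the log2 fold change was -0.17 ± 0.058 (adjusted p = 0.341 with edgeR). The share of all genes tested whose females and males do not overlap was not determined. Exons of Psma4 overlap those of AY074887 on the other strand. Trim55 had the opposite sign, with 90.4 to 123 CPM in females (median 107) against 89.8 and 95.3 CPM in Epac1-PLN males and 92.7 and 100.3 CPM in wildtype males, and a log2 fold change of 0.17 ± 0.073 (adjusted p = 0.435). Females and males overlapped for Trim55. Psmb3, at 22.1 to 26.5 CPM in females (median 24.7), was at 25.9 to 27.9 CPM in males. Psmb2, at 87.0 to 106.6 CPM in females (median 97.4), was at 97.9 to 108.5 CPM in males. The log2 fold changes of these 2 beta subunits, -0.13 and -0.11, did not pass (adjusted p = 0.529 and 0.571 with edgeR).

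Whether the genotype difference itself depended on sex was tested with an interaction term. With edgeR 0 members passed and 0 had an unadjusted p under 0.05 (3.75% of all genes tested did), and DESeq2 and limma-voom called 0 members. The smallest p belonged to Psmd11, a lid subunit, whose log2 difference between Epac1-PLN and wildtype was -0.17 in females and 0.081 in males (interaction -0.25 ± 0.12, unadjusted p of 0.0514, adjusted p = 0.993 with edgeR). Psmd14 followed with -0.016 in females and -0.25 in males, Mdm2 with -0.032 and 0.17, Psmc5 with 0.025 and -0.17, and Trim55 with -0.25 and -0.060. With 2 males of each genotype the SE of these interaction terms was 0.12 to 0.14 on the log2 scale.

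Around the members, 11 lists of related genes were read from the same fit. Of their 196 tested genes, 1 passed the genotype test with edgeR, where 0.641% of all genes tested did. limma-voom called 1 of the 196, the same gene, where it called 73 of all 12629 genes tested. DESeq2 called 4 of them, where it called 265 of all 12628 genes tested. The gene called by all 3 tools was Hsph1, which encodes HSP110, a nucleotide exchange factor for HSP70 chaperones. It was at 169.8, 232, 288, 219 and 294 CPM in the Epac1-PLN libraries and 121, 114, 142, 176 and 135 CPM in the wildtype libraries. Epac1-PLN replicate 1 alone lay within the wildtype range, and the log2 fold change was 0.81 ± 0.15 (adjusted p = 0.0413) with edgeR. The call depends on single libraries, since the adjusted p was 0.12 without Epac1-PLN replicate 3 and 0.145, 0.103, 0.102 and 0.0916 without wildtype replicate 1, 2, 3 and 5, while the log2 fold change stayed between 0.66 and 0.90. It also missed the threshold without the sex term, with the replicate block and in females only (adjusted p = 0.0563, 0.0774 and 0.27 with edgeR). Of the 16 chaperones and co-chaperones that work with CHIP, 11 had a log2 fold change above 0 and 5 below 0, where 49% of all genes tested lay below 0. At an unadjusted p under 0.05 stood 4 of the 16, all higher in Epac1-PLN, where 6.77% of all genes tested were higher at that level. Hsp90aa1, the inducible HSP90, averaged 64.5 ± 15.9 CPM in Epac1-PLN and 41.2 ± 10.7 CPM in wildtype, and Hspa8, the constitutive HSC70, averaged 99.5 ± 14.9 CPM in Epac1-PLN and 76.2 ± 19.4 CPM in wildtype (SD, n = 5 each). Their log2 fold changes of 0.67 and 0.41 did not pass the test with edgeR (adjusted p = 0.186 and 0.265), and DESeq2 called Hsp90aa1 (adjusted p = 0.0158).

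Proteins that bind or assemble the proteasome gave 0 calls with edgeR, DESeq2 and limma-voom. Of 6 activators and inhibitors, 5 had a log2 fold change above 0. Psme1, a subunit of the PA28 activator, averaged 133 ± 13.4 CPM in Epac1-PLN and 152 ± 11.8 CPM in wildtype, which gave a log2 difference of -0.19 ± 0.060 (adjusted p = 0.193). Psme4, the PA200 activator, averaged 596 ± 64.0 CPM in Epac1-PLN and 518 ± 45.6 CPM in wildtype, which gave a log2 difference of 0.20 ± 0.063 (adjusted p = 0.2). These 2 had opposite signs and neither passed. AI314180, the gene of the 19S-binding protein ECM29, was at 0.14. Among 18 assembly factors and further 19S proteins, 11 lay below 0 and none had an unadjusted p under 0.05. The 3 smallest p belonged to the ubiquitin shuttle gene Ubqln4 (0.10), the proteasomal deubiquitinase gene Usp14 (-0.12) and the ubiquitin receptor gene Adrm1 (0.15). In the NFE2L1 pathway 7 of 10 genes lay below 0, while Nfe2l1 itself averaged 837 ± 32.5 CPM in Epac1-PLN and 769.7 ± 78.5 CPM in wildtype, a log2 difference of 0.13 ± 0.070 (adjusted p = 0.51), and Vcp, the p97 segregase, and Bach1, a repressor at antioxidant response elements, were at -0.074 and -0.14 (-0.045 and -0.071 without Epac1-PLN replicate 4).

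Upstream in the ubiquitin cascade, 9 ubiquitin and E1 genes had a median log2 fold change of 0.0027 and 30 E2 genes one of -0.018, with 0 calls by edgeR, DESeq2 and limma-voom and 0 unadjusted p under 0.05 in either list. The E1 gene Uba6 was at -0.14, and at -0.081 without Epac1-PLN replicate 4. Of the E2 genes with the smallest p, Ube2e1, Ube2f and Ube2g2 were at -0.16, 0.11 and 0.11.

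Among 43 further ligases expressed in striated muscle, 0 passed with edgeR and limma-voom, while 2 were higher and 3 lower in Epac1-PLN at an unadjusted p under 0.05 (6.77% and 5.4% of all genes tested). Fbxo21 averaged 41.8 ± 4.84 CPM in Epac1-PLN and 52.3 ± 5.40 CPM in wildtype, which gave a log2 difference of -0.32 ± 0.094 (adjusted p = 0.164), and Cblb, known as a ligase of insulin receptor substrate signalling in unloaded mouse muscle, averaged 17.2 ± 2.79 CPM in Epac1-PLN and 13.8 ± 2.85 CPM in wildtype, which gave a log2 difference of 0.31 ± 0.11 (adjusted p = 0.246). Of 27 deubiquitinases, 16 lay above 0, 2 were higher at an unadjusted p under 0.05 (6.77% of all genes tested were) and 0 passed with edgeR, DESeq2 or limma-voom. Usp47 and Usp13 had groups that did not overlap, as did 2.75% of all genes tested, at 249 ± 14.1 CPM in Epac1-PLN and 219 ± 7.38 CPM in wildtype and at 508 ± 39.5 CPM in Epac1-PLN and 451 ± 31.6 CPM in wildtype, and log2 fold changes of 0.19 and 0.17 (adjusted p = 0.206 and 0.358 with edgeR), and Bap1 was at 0.11.

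Genes linked to FoxO and atrophy (19 tested, 13 above 0) and to p53 and MDM2 (15 tested, 11 above 0) also held 0 calls with edgeR and limma-voom. Gadd45a, a growth arrest gene known from wasting muscle in mice, averaged 13.5 ± 6.17 CPM in Epac1-PLN and 23.3 ± 5.51 CPM in wildtype, which gave a log2 difference of -0.79 ± 0.24 (adjusted p = 0.199) with edgeR. Cdkn1a, the p53 target p21, averaged 20.5 ± 12.2 CPM in Epac1-PLN and 12.4 ± 4.46 CPM in wildtype, which gave a log2 difference of 0.74 ± 0.26 (adjusted p = 0.282). The Cdkn1a mean in Epac1-PLN rests on replicate 4, at 41.4 CPM where the other 4 lay between 10.5 and 20.3 CPM, and without that library the log2 difference was 0.42 (adjusted p = 0.336 with edgeR), and with quality weights in limma-voom it was 0.40. In both genes the groups overlapped, and DESeq2 called Gadd45a (adjusted p = 0.0236). Hdac5, Eif4ebp1, Ccng1 and Phlda3, the others of these 2 lists with the smallest p, had log2 fold changes of 0.15, 0.20, 0.18 and 0.36, none past the test, and Eif4ebp1 was at 0.099 without Epac1-PLN replicate 4. Among the genes of all these lists, exons of Psmd13 and Sirt3, Psmd3 and Gm12356, Fbxo32 and Gm15943, and Psmb8 and Gm20496 overlap on opposite strands. So do those of Psmb9 and Tap1, Psme1 and Emc9, Usp14 and Thoc1, Vcp and 1700022I11Rik, Ube2e1 and Nkiras1, and Gadd45a and E230016M11Rik. Whether counting used the strand is not stated, so the reads of such pairs cannot be told apart. On the same strand, exons overlap for Psmb5 and Mir686, Psmd1 and Gm21972, Stub1 and Mir3082, and Ube2g2 and Mir1930. Those of Hspa8 overlap Snord14c, Snord14d and Snord14e on the same strand. Use of the strand would not separate the reads of these genes.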

How the data were processed

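The deposited file used here holds the authors' raw counts per gene, with a column for each mouse. A second file, of values that the authors normalized by size factors, was not used here. The submitters' processing notes name build mm10 and, among the tools, STAR 2.3.0 and HTSeq 0.5.4, with no settings, annotation or use of strand. Per the labels' protocols, TruSeq RNA libraries were sequenced on a HiSeq2000.

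Counts were filtered with filterByExpr on genotype, scaled by TMM and fitted over all 10 libraries with sex and genotype in edgeR 4.0.16 (R 4.3.3), with robust quasi-likelihood dispersions. Genes with a Benjamini-Hochberg adjusted p under 0.05 over the 12629 tested genes were called. The same fit gave the sex effect, and an added term the genotype-by-sex effect. Fold changes are Epac1-PLN over wildtype, with standard errors. Each member had 135 to 7107 counts per library. Replicate libraries differed by more than sampling noise in all 20 pairs within a genotype, at 7.64 to 33.3 times the chi-square that noise gives. Rows without a symbol held at most 0.0413% of a library's counts.

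The members and the lists were chosen with earlier results of these data known. Values of every library are given for the 6 ligases, for Psmb5, Psmb6 and Psmb7, and for the 3 genes of each subunit class with the smallest genotype p. For sex and the genotype-by-sex term the 5 smallest p were named, and of each further list the 3 smallest, every call and the immunoproteasome subunits; a few genes these rules pick are not reported here. In those lists, 3 symbols held by more than 1 row were not counted.

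Alternatives were 2 other scalings, 2 other count filters, DESeq2 1.42.0, limma-voom (limma 3.58.1), the same with quality weights, no sex term, a replicate block, females only, and each library left out in turn. Promoter letters came from RefSeq on GRCm38.p6.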

Additional observations from a re-analysis of the deposited data

Results flagged for a closer look

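Among 148 groups of 5 libraries checked for a library far from the other 4 (Dixon's critical value 0.71), 18 held one. Of the 74 groups made up of members, 9 held one. Epac1-PLN replicate 4 was the outlying library in 9 of the 18, which include the mean deviation of the subunits. The critical value marks about 1 in 20 of independent groups, but these groups share libraries, so the counts carry no test. The share over all genes tested was not determined.

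In that library the core subunit Psma6 was at 123 CPM, where the other Epac1-PLN libraries ran from 152 to 159 CPM, and the catalytic subunit Psmb7 was at 193 CPM, where they ran from 213 to 216 CPM. Of the 19S lid subunits, Psmd6 was at 83.1 CPM (97.2 to 98.6 in the others), Psmd7 at 113 (130 to 136), Psmd12 at 117 (141 to 144) and Psmd13 at 84.9 (92.8 to 94.2). All 6 were low there, and the mean log2 deviation of the 31 subunits was -0.121, where the other Epac1-PLN libraries lay between -0.033 and -0.0044. Outside the members, AI314180 was at 300 CPM and Vcp at 76.4 CPM in the same library, both below the rest of the group.

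In Epac1-PLN replicate 5 the lid deubiquitinase Psmd14 was low at 52.4 CPM and the E2 gene Ube2f high at 46.6 CPM, and in Epac1-PLN replicate 3 Ubqln4 was low at 134 CPM. In wildtype replicate 4 the catalytic subunit Psmb6 was low at 122 CPM (140 to 146 in the others), while Fbxo30 was high at 73.2 CPM (42.3 to 47.6) and the E1 gene Uba6 high at 17.5 CPM. In wildtype replicate 2 Cblb was high at 18.7 CPM and Usp13 low at 396 CPM, and in wildtype replicate 3 the p53 target Phlda3 was high at 5.35 CPM.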

How the results depend on the processing

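No member was called for genotype under any of the 20 alternatives, and the subunit median stayed between -0.10 and -0.053 with 24 to 30 of 31 subunits below 0. The count of all genes called for genotype ran from 2 to 498 against 81, with 64 under upper-quartile scaling, 265 with DESeq2, 273 with quality weights, 498 without a filter on low counts, 37 without a sex term, 4 in females only and 14 to 103 with a library left out. Without a filter, Hsp90aa1, Hspa8, Gadd45a, Cdkn1a and Fbxo21 passed as well (adjusted p = 3.5e-10, 0.000753, 3.22e-09, 6.77e-07 and 0.0163 with edgeR). Hsp90aa1 and Gadd45a also passed with quality weights (adjusted p = 0.0204 and 0.037 with limma-voom). For sex, DESeq2 called 1 member, Psmb1, and the other 16 alternatives called 0, while the count of all genes called, 43 with edgeR, was 158 with DESeq2, 212 with quality weights, 521 without a filter and 18 to 93 with a library left out. No member was called for the genotype-by-sex term under 17 alternatives, and 164 genes were without a filter. The labels do not say whether the replicate numbers pair the mice. Same-numbered libraries deviated together in 3 of 5 pairs (correlations 0.346, -0.3, 0.139, -0.21 and 0.104). With the replicate block, 0 members were called, the subunit median was -0.072 and 2 genes were called in all. Psma5, the subunit with the fewest counts, had the largest SE of the 31 subunits (0.095), and the part of depth in it was not tested.

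The genotype fold changes of 13 members changed sign under some setting. In the main fit they lay between -0.052 (Psmc5) and 0.060 (Stub1), but for Fbxo30 at -0.16. With upper-quartile scaling Psmb6 was at -0.0049 and Fbxo32 at -0.0059. Without a filter on low counts they were at -0.00028 and -0.0040. Psmb5 was at 0.0042 with limma-voom. Quality weights gave 0.022 for Psmb5, -0.020 for Psmb6, 0.012 for Psmd2, 0.0038 for Psmd7 and -0.067 for Psmb9. In females only, Psmb5 was at 0.088, Psmc3 at 0.00034, Psmc5 at 0.029 and Mdm2 at -0.027. With 1 added to each count, the ratio Psmb9 to Psmb6 differed by 0.0025. Leaving out each library in turn gave -0.038 to 0.0041 for Psma4, -0.051 to 0.058 for Psmb5, -0.033 to 0.033 for Psmb6, -0.063 to 0.0048 for Psmc3, -0.028 to 0.027 for Psmd2, -0.044 to 0.036 for Psmd3, -0.063 to 0.0086 for Psmd7, -0.0018 to 0.056 for Psmd8, -0.057 to 0.11 for Fbxo32, -0.0046 to 0.11 for Stub1, -0.30 to 0.017 for Fbxo30, -0.13 to 0.27 for Psmb8 and -0.14 to 0.27 for Psmb9. The log2 differences of the ratios ran from -0.25 to 0.26 for Psmb8 to Psmb5, from -0.22 to 0.19 for Psmb9 to Psmb6 and from -0.013 to 0.12 for Psmb10 to Psmb7. None of these was past the threshold, and the cause of the changes of sign was not tested.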
